A study of Mus musculus with 12 samples.

Results

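Long noncoding RNAs and host transcripts of small RNAs were followed in splenic CD4+ T cells of mice with and without ligature-induced periodontitis. The 10 genes were taken by symbol from the 55414 gene records of the count matrix, by a list drawn up with earlier results of these data known. They were the nuclear RNAs Malat1 and Neat1, the small nucleolar RNA (snoRNA) hosts Gas5, Snhg1, Snhg3, Snhg6, Snhg8 and Snhg12, and the microRNA hosts Mir17hg and Mir155hg. All 10 had a record, and all 10 passed the filter on low counts in every comparison.

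The mice were wild-type BALB/c animals of 18 weeks. In the LIP group a silk thread had been tied around maxillary molars for 14 days, while the control (CTL) group was anesthetized without a ligature. CD4+ T cells were purified from spleen and sequenced either right after isolation (day 0) or after stimulation in culture (day 2). The labels' protocol gives 10 ng/ml IL-2, 1 µg/ml anti-TCRβ antibody and 1 µg/ml anti-CD28 antibody for that culture. The treatment labels of some day 2 libraries name anti-CD29 or anti-CD30 in place of anti-CD28, and the study's methods give other doses of IL-2 and anti-TCRβ. Each of the 4 groups held 3 libraries, and a library is called here by its group and the number in its label. Day 0 held CTL 88, 89 and 94 and LIP 92, 93 and 94, and day 2 held CTL 92, 93 and 97 and LIP 90, 96 and 97. The labels and the count matrix name these LIP libraries of day 2, but the authors' table of the day 2 comparison names LIP 88, 89 and 90, so the identity of LIP 96 and 97 is unresolved and every day 2 value of LIP rests on the labels. The labels do not say whether a library came from 1 animal, so the p-values measure the spread between these libraries, which may be technical.

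Malat1 and Neat1 are transcribed from neighbouring genes and stay in the nucleus, Malat1 in nuclear speckles and Neat1 as the scaffold of paraspeckles. SnoRNA hosts carry snoRNAs in their introns. The introns are processed into snoRNAs that guide ribosomal RNA modification or processing, while the spliced exons are often removed in the cytoplasm by nonsense-mediated decay. Mir17hg and Mir155hg are spliced into noncoding RNAs too, and their primary transcripts are cut by Drosha and Dicer into the miR-17 to miR-92 cluster and miR-155, which are known for roles in T cell proliferation and effector function.

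In GRCm39 (GENCODE M39), Malat1 lay at chr19:5845717-5853602 and Neat1 at chr19:5874736-5897132, both on the minus strand. Inside the 8 host genes the annotation held 27 snoRNA and 7 microRNA genes on the strand of the host. Gas5 (chr1:160861793-160866118, plus strand) held 10 snoRNA genes, Snhg1 (chr19:8700319-8703812, plus) held 8 and Snhg12 (chr4:132035905-132038762, plus) held 5. Snhg3 (chr4:132075325-132080997, minus) held 2, and Snhg6 (chr1:9926809-10014504, minus) and Snhg8 (chr3:123301192-123302578, minus) held 1 each. Mir17hg (chr14:115278211-115284162, plus) held 6 microRNA genes and Mir155hg (chr16:84500055-84512133, plus) held 1. Only Snora73b, inside Snhg3, lay in an intron of every annotated host transcript. The other small RNA genes overlapped an annotated exon of their host, so host counts may include reads of these stretches, which was not tested.

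The products of the microRNA hosts are shown because the host transcript, not the mature microRNA, was what the libraries could count. The mature sequences (RefSeq, GRCm38.p6) are written 5′ to 3′ with the seed, bases 2 to 8, in capitals.
mmu-miR-17-5p: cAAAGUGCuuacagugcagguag
mmu-miR-20a-5p: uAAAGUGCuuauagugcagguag
mmu-miR-18a-5p: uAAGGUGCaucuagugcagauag
mmu-miR-19a-3p: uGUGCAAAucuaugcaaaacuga
mmu-miR-19b-3p: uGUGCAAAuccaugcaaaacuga
mmu-miR-92a-3p: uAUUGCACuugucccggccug
mmu-miR-155-5p: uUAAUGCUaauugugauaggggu
The seed of miR-17-5p was that of miR-20a-5p, and the seed of miR-19a-3p was that of miR-19b-3p. The mature miR-19b-3p and miR-92a-3p sequences are also encoded at another locus each (Mir19b-2 and Mir92-2), outside Mir17hg.

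The start sites of 4 snoRNA hosts are shown because these hosts are the members that are compared most closely on day 2. Genes of the translation machinery and several snoRNA hosts are known to start with C followed by a run of pyrimidines, the 5′ terminal oligopyrimidine tract. Each window (RefSeq, GRCm38.p6) runs from 40 bases before the start to 20 bases from it, on the strand of the gene. Capitals mark TATA, searched from 40 to 21 bases before the start, and the pyrimidine run that begins at the start. TATA reads the same on both strands, the run was read on the gene's strand only, and the stretches searched do not overlap.
Gas5 (chr1:161035126-161035185, plus): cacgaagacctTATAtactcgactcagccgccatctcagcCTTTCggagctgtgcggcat
Snhg8 (chr3:123508317-123508376, minus): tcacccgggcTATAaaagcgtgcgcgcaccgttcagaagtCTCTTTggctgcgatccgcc
Snhg1 (chr19:8723447-8723506, plus): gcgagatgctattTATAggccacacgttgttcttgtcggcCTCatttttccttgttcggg
Snhg12 (chr4:132308638-132308697, plus): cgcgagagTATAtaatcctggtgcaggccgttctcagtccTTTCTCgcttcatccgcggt
Of the 9 windows available for 8 members, 4 held TATA in that stretch and 2, those of Gas5 and Snhg8, started with C in a run of at least 5 pyrimidines. Gas5 had a further window with neither. The windows of Mir17hg and Mir155hg come from entries that start near or inside the microRNA hairpins and so show no host promoter. Among all 32851 windows of mouse genes, 5.34% held TATA there, 2.51% had the C start with the run, and 0.131% had both. No window was at hand for Neat1 and Snhg6.

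The 12 libraries held 6249018 to 12866718 counts. Levels are given as normalized CPM, counts scaled to a common library total by the trimmed mean of M values over all 12 libraries, and 3 counts equalled 0.233 to 0.480 CPM, which covers counting error only. The lowest value of any member, 1.45 CPM, was above that floor. Summed levels of 7 CD4 T cell markers were 2090 to 3570 CPM in all libraries. The myeloid sum was 2.51 to 13.5 CPM, with S100a8 and S100a9 at 0. The series describes the mice as male, but Xist, the RNA of the inactive X chromosome, was at 2040 to 4230 CPM and the Y-linked Ddx3y at 0 counts in all 12 libraries. Of the other Y-linked genes, Eif2s3y had at most 1 count and Uty at most 4, while Kdm5d had 62 to 188 counts in all 12 libraries. The high Xist and absent Ddx3y go against the stated sex in both groups alike, and Kdm5d does not.

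Malat1 stood far above the other members. Per kilobase of exon its mean was 2810 CPM in CTL and 2710 in LIP on day 0, and 1050 and 1060 on day 2, the highest level of all long noncoding RNA genes in each group. The next members in CTL on day 0 were Snhg1 at 29.5, Snhg8 at 16.2, Gas5 at 15.5 and Neat1 at 13.3 CPM per kilobase, and the libraries of Snhg8, Gas5 and Neat1 overlapped on this scale. Snhg12 at 8.24, Mir17hg at 4.73, Snhg3 at 2.81, Mir155hg at 1.25 and Snhg6 at 0.953 CPM per kilobase followed. The exon length is the union over all annotated transcripts, so genes with many listed isoforms come out lower on this scale. Together the 10 members took 2.29% to 2.71% of the counts on day 0 and 0.665% to 0.972% on day 2, nearly all of it Malat1.

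**Figure D1:**
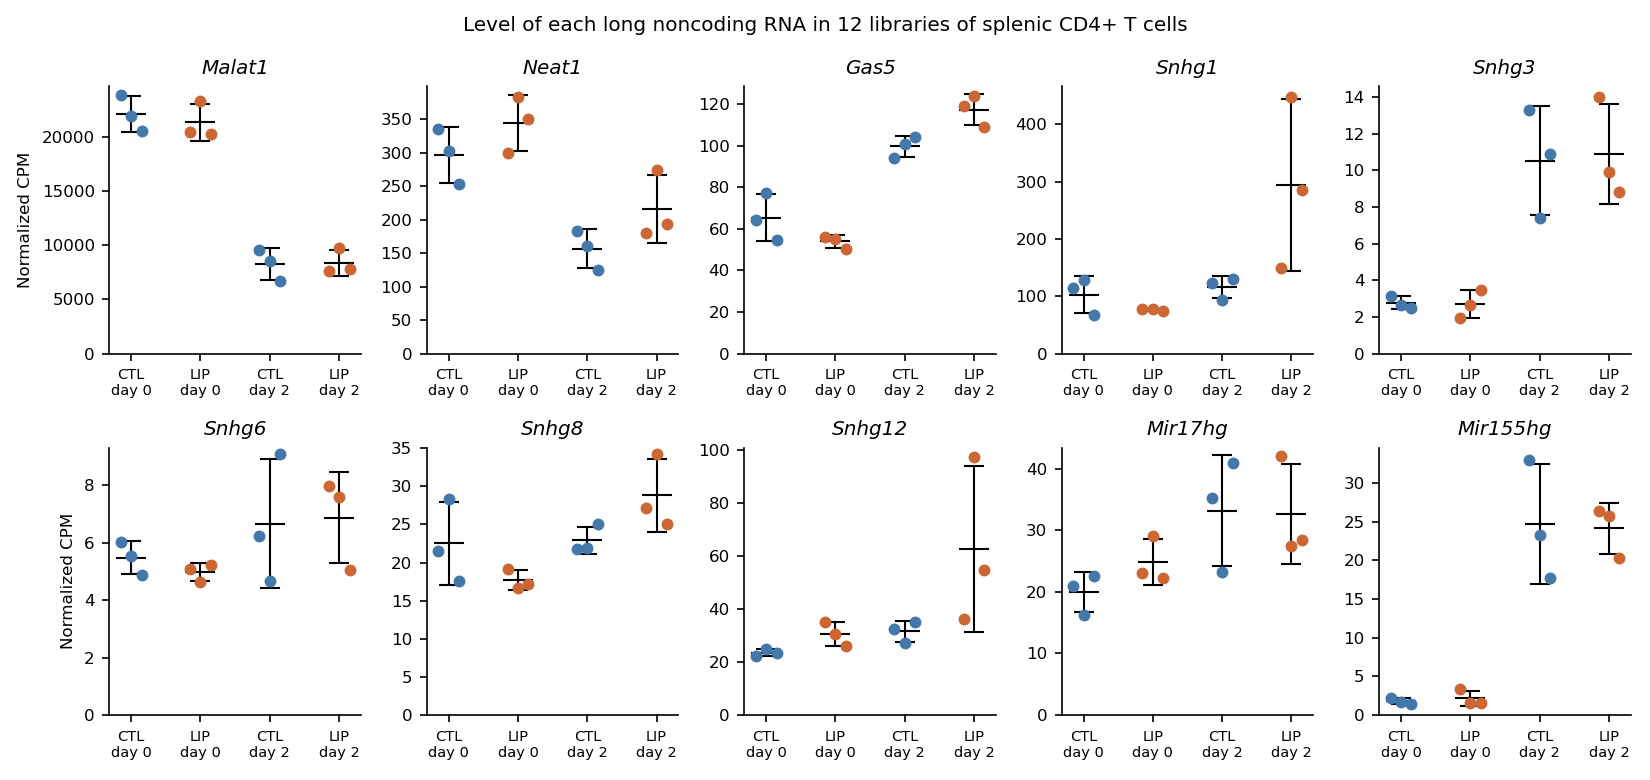
Normalized CPM of the 10 members in the 12 libraries, with a panel for each member on its own linear axis from 0. Points are single libraries, black marks give the group mean and SD, and color tells CTL from LIP. By value, Malat1 lies above all other members in every library. Mir155hg shows the widest gap between the days as a ratio, from 1.45 to 3.31 CPM on day 0 to 17.7 to 33.0 CPM on day 2.

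The comparison of day 2 with day 0 addresses what stimulation in culture did to these RNAs. A gene is called where the adjusted p of edgeR's quasi-likelihood test is under 0.05. In CTL, Malat1 and Neat1 fell, Gas5, Snhg3, Mir17hg and Mir155hg rose, and Snhg1, Snhg6, Snhg8 and Snhg12 did not pass the test. The background is broad, since 35.3% of all 15475 genes tested were called higher and 33.7% lower, so 4 members higher and 2 lower of 10 is a share near that of all genes. In LIP, 6 members rose and 2 fell, against 36.6% of all genes called higher and 35.2% called lower. Median log2 fold changes of the members were 0.35 in CTL and 0.87 in LIP, beside −0.02 and 0.00 over all genes. Among the 1387 long noncoding RNA genes tested the medians were −0.83 in CTL and −1.003 in LIP. Of these, 154 were called higher and 710 lower in CTL, and 148 and 815 in LIP. Cultured and uncultured cells differ in more than time, since the proliferation marker sum was 45.3 to 201 CPM on day 0 and 3450 to 4410 CPM on day 2. In bulk samples fewer cells of a type and less RNA per cell cannot be told apart.

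Of the nuclear RNAs, Malat1 was at 23900, 22000 and 20600 CPM in CTL 88, 89 and 94 and at 20500, 23400 and 20300 CPM in LIP 92, 93 and 94 on day 0. On day 2 it was at 9570, 8570 and 6690 CPM in CTL 92, 93 and 97 and at 7620, 9760 and 7780 CPM in LIP 90, 96 and 97. Every day 2 library lay below every day 0 library, while LIP and CTL overlapped on both days. Malat1 fell by 1.42 on the log2 scale in CTL (SE 0.15, adjusted p = 1.84e-06, 2.68-fold lower) and by 1.35 in LIP (SE 0.15, adjusted p = 2.61e-06).

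Neat1, whose RNA holds paraspeckles together, was at 336, 302 and 253 CPM in CTL and at 300, 383 and 351 CPM in LIP on day 0. By day 2 it was at 183, 161 and 125 CPM in CTL and at 180, 274 and 193 CPM in LIP. The days did not overlap in CTL or in LIP, where LIP 96 was the highest library of day 2. Neat1 fell by 0.92 in CTL (SE 0.18, adjusted p = 0.000391) and by 0.68 in LIP (SE 0.18, adjusted p = 0.00351). LIP minus CTL was 0.22 (SE 0.11, adjusted p = 0.399) on day 0 and 0.45 (SE 0.20, adjusted p = 0.304) on day 2, and neither passed the test.

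Deviations of Malat1 and Neat1 from their group means went together over the 12 libraries, with Pearson r = 0.939. Both were lowest within their group in CTL 94 on day 0 and in CTL 97 on day 2. The points share library preparation and depth, so r is given as a description. Neat1 and Malat1 also shared Pgs1 among the 2 genes whose deviations were most like theirs, at r = 0.961 and 0.964.

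**Figure D2:**
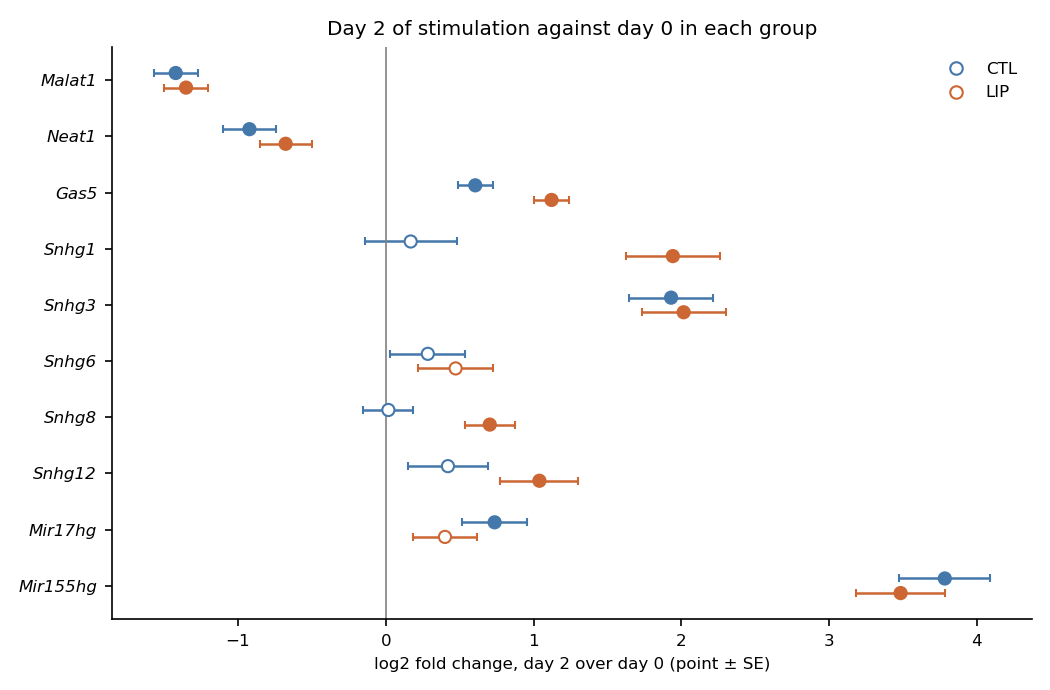
Log2 fold change of day 2 against day 0 with its SE for each member, CTL and LIP apart, with filled points for adjusted p under 0.05 and open points for the rest. Malat1 and Neat1 lie below 0 in both groups, and Mir155hg lies farthest above 0 at 3.78 in CTL and 3.48 in LIP.

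Gas5 carries box C/D snoRNAs that guide ribosomal RNA methylation. It was at 64.3, 77.3 and 54.7 CPM in CTL and at 56.2, 55.2 and 50.5 CPM in LIP on day 0. After culture it was at 94.1, 101 and 104 CPM in CTL and at 119, 124 and 109 CPM in LIP. Every day 2 library lay above every day 0 library, and the LIP libraries of day 2 lay above those of CTL. Gas5 rose in CTL by 0.61 on the log2 scale (SE 0.12, adjusted p = 0.000435) and in LIP by 1.12 (SE 0.12, adjusted p = 1.7e-06). On the opposite strand Zbtb37 shares 627 bases with it, and Zbtb37 fell by 1.25 in CTL and 1.46 in LIP. The library kit keeps strand, but the strand setting of the counting is not given in the sources used here, so the part of such neighbours in a host's count was not tested.

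Snhg3 hosts the H/ACA snoRNAs Snora73a and Snora73b, which act in ribosomal RNA processing. It was at 3.16, 2.65 and 2.50 CPM in CTL and at 1.93, 2.67 and 3.47 CPM in LIP on day 0. The day 2 libraries held it at 13.3, 7.40 and 10.9 CPM in CTL and at 14, 9.92 and 8.81 CPM in LIP. The days were far apart and the groups overlapped. Snhg3 rose by 1.93 in CTL (SE 0.28, adjusted p = 3.93e-05) and by 2.02 in LIP (SE 0.28, adjusted p = 2.48e-05). All 5673 bases of Snhg3 lie within Rcc1 on the same strand, and Rcc1, a chromatin protein that loads Ran with GTP, rose by 2.80 and 2.83. Gm17300, on the opposite strand, shares 1613 bases with Snhg3 and rose by 1.83 in CTL and 1.86 in LIP. Reads of these overlapping genes may have been split between them in counting, so the values of Snhg3 are uncertain.

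Snhg8 was at 21.5, 28.4 and 17.6 CPM in CTL and at 19.2, 16.7 and 17.2 CPM in LIP on day 0. After stimulation it was at 21.8, 21.9 and 25.0 CPM in CTL and at 27.2, 34.2 and 25.0 CPM in LIP. In CTL the days overlapped, and in LIP they did not. Snhg8 rose in LIP by 0.70 (SE 0.17, adjusted p = 0.00212), and its value in CTL was 0.02 (SE 0.17, adjusted p = 0.928), with a sign that turned under other scalings. Snhg8 hosts a single snoRNA gene and overlapped no other gene.

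Snhg6 was the lowest of the members per kilobase in CTL on day 0, at 4.64 to 6.03 CPM on day 0 and 4.66 to 9.08 CPM on day 2. Its day change was 0.29 (SE 0.25, adjusted p = 0.330) in CTL and 0.47 (SE 0.25, adjusted p = 0.109) in LIP, where it was called without LIP 97 (0.65, adjusted p = 0.0394). The libraries overlapped between days and between groups. Sgk3, on the opposite strand across part of its long span, fell by 3.06 in CTL and 2.65 in LIP.

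Snhg1 hosts box C/D snoRNAs and is known as a transcript that is removed by nonsense-mediated decay when translation runs. It was at 114, 128 and 66.7 CPM in CTL and at 77.4, 77.2 and 74.6 CPM in LIP on day 0. In cultured cells it was at 123, 94.1 and 130 CPM in CTL and at 149, 448 and 285 CPM in LIP. LIP 96 and LIP 97 stood above all other libraries, LIP 90 lay just above CTL, and the day 2 groups did not overlap. Snhg1 rose from day 0 to day 2 in LIP by 1.94 (SE 0.32, adjusted p = 9.78e-05), while its value in CTL was 0.17 (SE 0.31, adjusted p = 0.641). Its mean per kilobase moved from rank 50 to rank 13 among long noncoding RNA genes in LIP and from rank 38 to rank 29 in CTL.

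Snhg12, a host of H/ACA and C/D snoRNAs, was at 22.3, 24.8 and 23.5 CPM in CTL and at 35.0, 30.4 and 26.2 CPM in LIP on day 0. On day 2 it was at 32.4, 27.2 and 35.0 CPM in CTL and at 36.3, 97.2 and 54.7 CPM in LIP. LIP libraries lay above CTL libraries on both days and on day 2 LIP 90 was only just above CTL 97. Snhg12 rose in LIP by 1.04 (SE 0.26, adjusted p = 0.00304), by 0.58 without LIP 96 (adjusted p = 0.0111) and by 1.33 without LIP 90 (adjusted p = 2.91e-05), and in CTL its value was 0.42 (SE 0.27, adjusted p = 0.182).

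The comparison of LIP with CTL within a day addresses what periodontitis did to the T cells. On day 0 none of the 10 members was called by edgeR's quasi-likelihood test, beside 0.427% of 14064 genes, and 0 by DESeq2, and 3 had an unadjusted p under 0.05, beside 13.9%. These were Gas5 at −0.27 (SE 0.11, adjusted p = 0.316), Snhg1 at −0.42 (SE 0.18, adjusted p = 0.316) and Snhg12 at 0.38 (SE 0.12, adjusted p = 0.204). Snhg12 was the 1 member whose groups did not overlap on day 0, beside 19.1% of all genes. The member median was −0.04, beside 0.01 over all genes and 0.03 over 1184 long noncoding RNA genes, of which 0 were called.

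On day 0, Gas5, Snhg1 and Snhg8 shared a split of the CTL libraries. CTL 88 and 89 were above all LIP libraries in each of these genes and CTL 94 was not. The summed level of early activation and dissociation genes was split in the same way, at 1700 and 1630 CPM in CTL 88 and 89, 969 CPM in CTL 94 and 816 to 1010 CPM in LIP. Of these 8 genes Fos and Jun were called lower in LIP, by 1.89 and 1.28 on the log2 scale (adjusted p = 0.0286 and 0.0199). Fosb, on the list of transcription factors, was called lower by 2.34 (adjusted p = 0.00718). Their part in the values of Gas5, Snhg1 and Snhg8 was not tested. Without CTL 94, 658 of 14343 genes (4.59%) were called, among them Snhg1 at −0.66 (adjusted p = 0.000416) and Gas5 at −0.39 (adjusted p = 0.039), with Snhg8 at −0.50 (adjusted p = 0.06). Without CTL 89 the values were smaller and none was called, with Snhg1 at −0.24 (adjusted p = 0.566), Gas5 at −0.14 (adjusted p = 0.579) and Snhg8 at −0.14 (adjusted p = 0.722).

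On day 2 again none of the 10 members was called, beside 0.00% of 14041 genes by the same test. An unadjusted p under 0.05 was found for 2 members, beside 16.5% of all genes. Snhg1 was 2.52-fold higher in LIP (log2 1.33, SE 0.35, adjusted p = 0.150) and Snhg12 1.97-fold higher (log2 0.98, SE 0.32, adjusted p = 0.198). Both were called under other settings, Snhg1 by DESeq2 (adjusted p = 0.0024) and in 1 edgeR fit of all 12 libraries (adjusted p = 0.0283), and Snhg12 by the same (adjusted p = 0.0421 and 0.0461), with 489 and 775 genes called in all. The groups did not overlap in 4 members, Snhg1, Snhg12, Gas5 and Snhg8, beside 21.5% of all genes, and in all 4 LIP was higher. Gas5 stood at 0.23 (SE 0.11, adjusted p = 0.343) and Snhg8 at 0.32 (SE 0.15, adjusted p = 0.339). The lowest LIP library of Snhg8 exceeded the highest CTL library by less than the 3 digits printed show. The member median was 0.13, beside −0.01 over all genes and −0.12 over 992 long noncoding RNA genes, of which 0 were called.

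**Figure D3:**
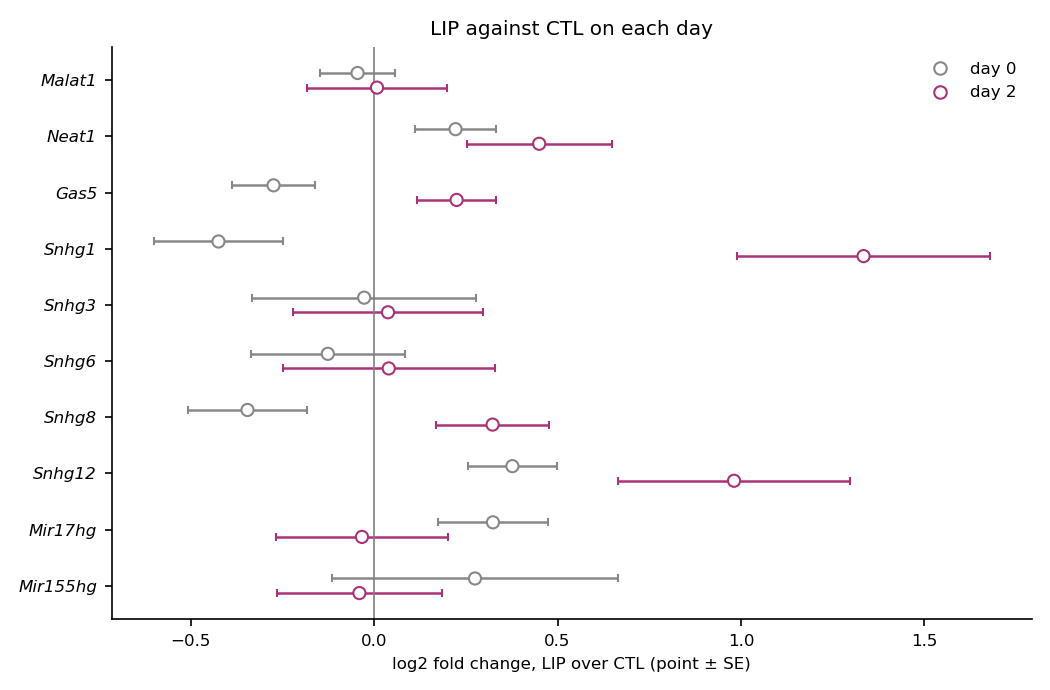
Log2 fold change of LIP against CTL with its SE for each member, day 0 and day 2 apart, with filled points for adjusted p under 0.05 and open points for the rest. All points are open, and the values farthest from 0 are Snhg1 at 1.33 and Snhg12 at 0.98 on day 2.

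The higher Snhg1 and Snhg12 of LIP on day 2 lay mostly in LIP 96 and LIP 97. Without LIP 90, 2014 of 14453 genes (13.9%) were called, among them Snhg1 at 1.68 (adjusted p = 0.000793, 3.2-fold) and Snhg12 at 1.29 (adjusted p = 0.00529, 2.44-fold). Without LIP 96, Snhg1 stood at 0.91 and Snhg12 at 0.53, and neither was called. Of the 9 other hosts tested on day 2, 2 had LIP 96 highest and LIP 97 next, while 5 had LIP 90 above both and 2 had another order. The 2 hosts with the order of Snhg1 and Snhg12 were Zfas1 and Epb41l4aos, named after their values were seen. Zfas1 was at 159, 127 and 145 CPM in CTL and at 141, 316 and 226 CPM in LIP. Epb41l4aos was at 3.38, 3.70 and 3.75 CPM in CTL and at 3.85, 11.8 and 8.03 CPM in LIP. Snhg4 ran the other way, at 70.2 CPM in LIP 90, 39.6 in LIP 96 and 35.6 in LIP 97. LIP 96 and 97 also had the highest sums of B cell markers (31.8 and 28.9 CPM, beside 19.1 in CTL 97 and 0.896 to 2.63 in the other day 2 libraries) and of CD8 T cell markers (13.2 and 9.2 CPM, beside 4.43 to 6.33). The early activation and dissociation sum was highest there too, at 1230 and 1360 CPM, beside 957 in LIP 90 and 870 to 1140 in CTL. The part of these cells and genes in the result was not tested.

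Snhg1 begins within Slc3a2, which lies on the opposite strand and encodes the heavy chain of the CD98 amino acid transporter, and the pair shares 790 bases. Slc3a2 was at 91.0, 87.9 and 105 CPM in CTL and at 114, 320 and 298 CPM in LIP on day 2, the same order of libraries at the top as in Snhg1 and Snhg12. LIP minus CTL was 1.36 (SE 0.34, adjusted p = 0.14) for Slc3a2 on day 2. Snhg12 overlaps no other gene. The part of shared reads in these values was not tested.

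**Figure D4:**
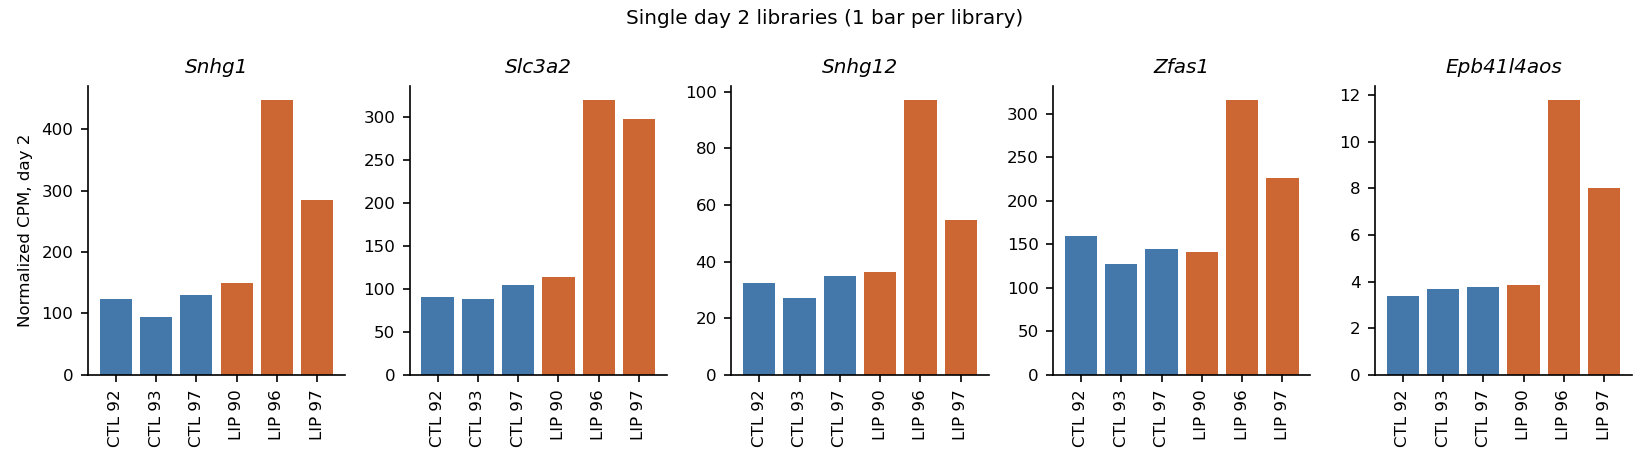
Normalized CPM of Snhg1, Snhg12, the Snhg1 neighbour Slc3a2 and the other hosts Zfas1 and Epb41l4aos in the 6 libraries of day 2, a bar for each library. In all 5 genes LIP 96 is highest and LIP 97 the next, and Slc3a2, Zfas1 and Epb41l4aos were chosen for that order, which 2 of the 9 other hosts tested show.

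A test of whether the LIP effect differed between the days used the interaction of group and day over all 12 libraries. None of the 10 members was called, beside 0.0517% of 15475 genes, and 3 members had an unadjusted p under 0.05, beside 15.9%. The LIP effect on day 2 minus that on day 0 was 1.77 for Snhg1 (SE 0.44, adjusted p = 0.0983), 0.52 for Gas5 (SE 0.17, adjusted p = 0.154) and 0.69 for Snhg8 (SE 0.24, adjusted p = 0.184). In these 3 hosts the LIP mean was below the CTL mean on day 0 and above it on day 2. Snhg12 was higher in LIP on both days, and its interaction was 0.62 (adjusted p = 0.463). Without LIP 90 the interaction was called for 1596 of 15823 genes (10.1%), among them Snhg1 at 2.09 (adjusted p = 0.000774) and Snhg12 at 0.90 (adjusted p = 0.0495). Without LIP 96 it was 1.34 and 0.15 with neither called. For Snhg1 it was also called by DESeq2 (adjusted p = 0.0297).

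Among the hosts, deviations from the group means went together most closely for Gas5 with Snhg8, at Pearson r = 0.906 over the 12 libraries, and for Snhg1 with Snhg12, at 0.819, and for the latter pair LIP 90 and LIP 96 of day 2 lie at the ends. These were not separate pairs, since r was 0.673 for Snhg1 with Snhg8 and 0.508 for Snhg8 with Snhg12. By level, the gene most like Snhg1 was Atf4, a transcription factor of the response to amino acid shortage (r = 0.962), and the one most like Gas5 was Hnrnpc, an RNA-binding protein (r = 0.994). These correlations run over libraries that share group differences and are given as a description.

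**Figure D5:**
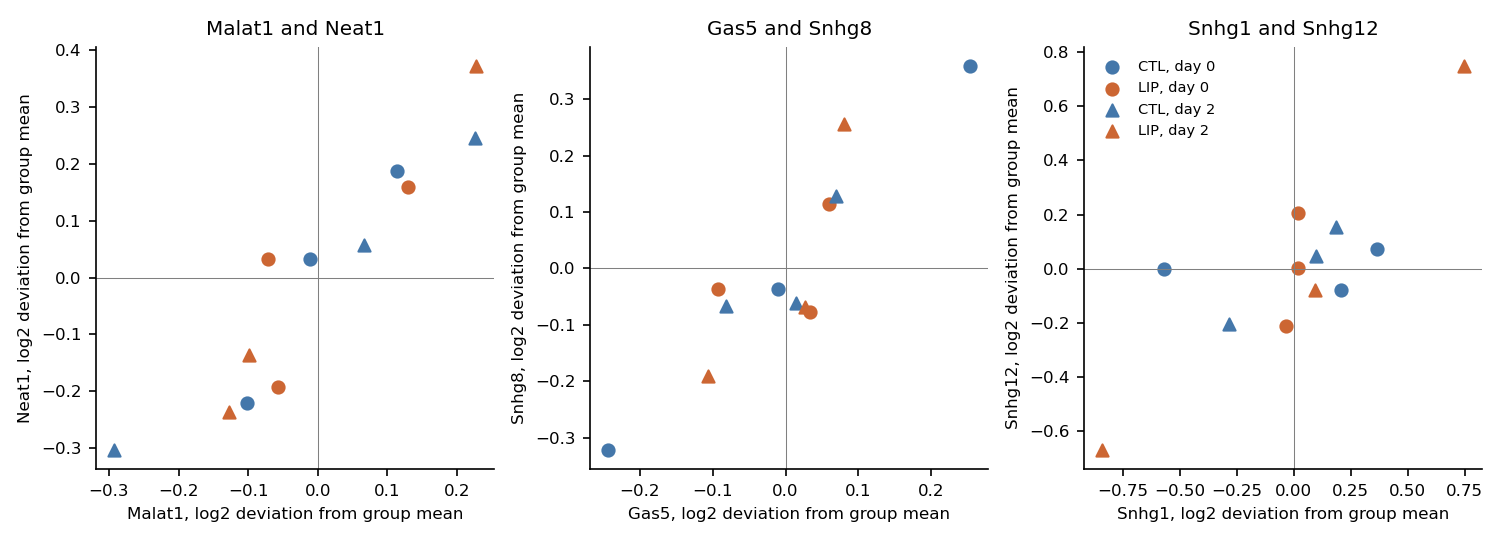
Deviation of each library from its group mean in log2 CPM for Malat1 with Neat1, Gas5 with Snhg8 and Snhg1 with Snhg12, with circles for day 0, triangles for day 2, blue for CTL and orange for LIP. Pearson r over the 12 libraries is 0.939, 0.906 and 0.819.

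Mir155hg, the host of miR-155, was among the members with the lowest levels on day 0, at 2.26, 1.69 and 1.45 CPM in CTL and at 3.31, 1.55 and 1.60 CPM in LIP. By day 2 it was at 33.0, 23.3 and 17.7 CPM in CTL and at 26.4, 25.7 and 20.3 CPM in LIP. The days were widely apart and the groups overlapped on both. Mir155hg rose 13.8-fold in CTL (log2 3.78, SE 0.31, adjusted p = 1.5e-07) and 11.2-fold in LIP (log2 3.48, SE 0.30, adjusted p = 2.26e-07). Its mean per kilobase moved from rank 790 to rank 53 among long noncoding RNA genes in CTL and from rank 702 to rank 51 in LIP. Mrpl39, which shares 9858 bases with Mir155hg on the opposite strand, rose by 1.17 and 1.61.

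Mir17hg, the host of the miR-17 to miR-92 cluster, was at 20.9, 16.3 and 22.6 CPM in CTL and at 23.1, 29.1 and 22.2 CPM in LIP on day 0. After culture it was at 35.3, 23.3 and 40.9 CPM in CTL and at 42.1, 27.5 and 28.4 CPM in LIP. It rose in CTL by 0.74 (SE 0.22, adjusted p = 0.00905), and its value in LIP was 0.40 (SE 0.22, adjusted p = 0.113), where the days overlapped. LIP minus CTL was 0.32 (SE 0.15, adjusted p = 0.370) on day 0 and −0.03 on day 2.

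The small RNAs themselves were hardly counted. All 34 snoRNA and microRNA genes inside the hosts were in the matrix, and 17 had a count above 0 in at least 1 library. Snora73b (46 to 232 counts per library) and Snora73a (33 to 192), both inside Snhg3, were highest, followed by Snord22 inside Snhg1 (7 to 63) and Snora44 inside Snhg12 (2 to 24). The other 30 had at most 7 counts in any library. Mir155 had 0 counts in all 12 libraries and Mir20a at most 1. Host levels here are therefore no measure of the mature microRNAs or snoRNAs.

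Genes around the hosts were read from lists. Of 17 other snoRNA hosts, 9 were tested, and by edgeR's quasi-likelihood test 4 rose and 1 fell with culture in CTL and 6 rose and 1 fell in LIP. Zfas1 rose most, 8.15-fold in CTL and 10.9-fold in LIP, and Snhg20 fell by 0.88 and 1.19 on the log2 scale. No other snoRNA host was called between LIP and CTL on either day. Both tested microRNA hosts, of 10 in the list, rose, Dleu2 by 1.68 and 1.63 and Mir22hg from 0.395 to 0.935 CPM on day 0, near the level of 3 counts, to 2.16 to 9.93 CPM on day 2. Of 15 other long noncoding RNAs tested, 7 rose and 5 fell in CTL and 6 rose and 6 fell in LIP. The 5 that fell in CTL were Lncpint, Ftx, Tug1, Kcnq1ot1 and Jpx. Of 6 structural noncoding RNAs, Rmrp and Rn7sk fell in CTL, by 0.70 and 0.39, and Rpph1 rose in LIP, by 0.50. The days overlapped for Rmrp in CTL, at 700 to 1670 CPM on day 0 and 696 to 801 CPM on day 2. They also overlapped for Rpph1 in LIP, at 57.4 to 89.1 CPM and 70.9 to 119 CPM. Terc, called higher in LIP, was at 0 in all LIP libraries of day 0 and at 0 to 1.34 CPM on day 2, where the days overlapped, so no change is read from it. None of the 6 was called for the interaction, so CTL and LIP are not shown to differ in them.

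Most protein partners of snoRNAs were higher after culture. All 12 box C/D and H/ACA snoRNP proteins tested rose in CTL, beside 35.3% of all genes, and 11 rose in LIP, beside 36.6%. Their median was 1.22 in each group, beside medians near 0 over all genes. Gar1, an H/ACA core protein, rose by 2.22 and 2.28. Shq1, an assembly factor, rose by 0.67 in CTL and stood at 0.49 in LIP without passing the test. None of the 12 was called between LIP and CTL on either day. Of 14 nonsense-mediated decay factors, 7 rose and 3 fell in CTL and 7 rose and 2 fell in LIP. Magoh, a part of the exon junction complex, rose by 1.32 and 1.68, and Smg1, the kinase that acts on Upf1, fell by 0.81 and 0.69.

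Of 11 paraspeckle proteins, the partners of Neat1, 7 rose and 0 fell in CTL and 4 rose and 1 fell in LIP. Nono, a core paraspeckle protein, rose by 1.05 and 1.41. Of 15 nuclear speckle and splicing proteins, 4 rose and 4 fell in CTL and 4 rose and 5 fell in LIP. Srsf5, a splicing factor, fell by 0.83 and 0.63, and Srrm1, a speckle protein, rose by 0.64 and 0.58. No protein of either list was called between LIP and CTL. Over all genes 35.3% rose and 33.7% fell in CTL and 36.6% rose and 35.2% fell in LIP.

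Of 13 microRNA processing and effector proteins, 6 rose and 6 fell in CTL and 4 rose and 6 fell in LIP. Among 14 reported miR-155 targets tested, 4 rose and 7 fell in CTL and 6 rose and 7 fell in LIP, with medians of −0.34 and −0.14. For all genes tested, 35.3% rose and 33.7% fell in CTL and 36.6% and 35.2% in LIP, with medians of −0.02 and 0.00. Called or not, 7 of the 14 miR-155 targets had a value above 0 in LIP and 7 a value below it. Wee1, a cell cycle kinase, rose by 3.33 and 3.02. Of 13 reported targets of the miR-17 to miR-92 cluster, 4 rose and 7 fell in CTL and 5 rose and 7 fell in LIP, with medians of −0.41 and −0.31. Cdkn1a, the cell cycle inhibitor p21, rose from 0.241 to 0.704 CPM on day 0, near the level of 3 counts, to 215 to 303 CPM in CTL and 128 to 212 CPM in LIP, and no fold is given from so low a start. Among 12 transcription factors reported at the host promoters, 10 rose and 1 fell in CTL and 11 rose and 1 fell in LIP. Irf4 rose by 6.06 and 6.19, Myc by 1.60 in both groups, and Fosb fell by 4.67 and 3.91.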

How the data were processed

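Splenic CD4+ T cell RNA was sequenced from 12 libraries, 3 in each of 4 groups, after ribosomal RNA depletion with a directional kit. The deposited values are expected counts per gene, made by the authors with RSEM 1.3.0 and Bowtie2 on GRCm39 after FastQC 0.11.9 and Trimmomatic. The annotation release and the strand setting are not given in the sources used here. Of the authors' tables of comparisons, which hold fold changes and p-values, only the gene symbols were used, and 2 LIP columns of day 2 that match no labelled library were left out.

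Expected counts were rounded (73267 values were not whole). Genes were filtered with filterByExpr, scaled by TMM and tested by the quasi-likelihood F test of edgeR 4.0.16 in R 4.3.3, with Benjamini-Hochberg adjustment over all genes tested. LIP and CTL were compared within each day on 6 libraries, after the study's design, and the day contrasts and the interaction came from 1 fit of 4 groups over 12 libraries. SE is the absolute log2 fold change divided by the square root of F. The tests were checked on simulated data. Depth was 6249018 to 12866718 counts per library. Alternatives were another filter, other scalings, DESeq2 1.42.0, other fits, leaving out each library and, added after the data were seen, a replicate block. All 10 members are named. Of each list, the genes with the highest and lowest fold change in a comparison and genes under counts of 5 or fewer could be named; Fos, Jun, Snhg4, Zfas1, Epb41l4aos, Slc3a2 and the other overlapping genes named here were chosen after their values were seen, and some results are not reported here. The members and lists were chosen with earlier results of these data known. Gene positions came from GENCODE M39 and sequences from RefSeq (GRCm38.p6), and 9 member symbols came from the authors' tables, with Mir17hg from the annotation.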

Additional observations from a re-analysis of the deposited data

Results flagged for a closer look

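In 3 snoRNA hosts the LIP effect differed between the days by the interaction term of edgeR's quasi-likelihood test at an unadjusted p under 0.05. LIP minus CTL on day 2 less that on day 0 was 1.77 on the log2 scale for Snhg1 (adjusted p = 0.0983), 0.52 for Gas5 (adjusted p = 0.154) and 0.69 for Snhg8 (adjusted p = 0.184). None passed the adjusted threshold. An unadjusted p under 0.05 was met by 15.9% of all genes tested. It was also met by 7 of the 8 early activation and dissociation genes, of which 7 had a positive value and 0 were called, with a median of 1.125. Their part in the values of the hosts was not tested. The value of Snhg1 ranged from 1.34 without LIP 96 to 2.09 without LIP 90, that of Gas5 from 0.38 without CTL 89 to 0.61 without CTL 94, and that of Snhg8 from 0.48 without CTL 89 to 0.82 without CTL 94. The cause was not tested.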

How the results depend on the processing

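The 14 called day changes of members kept their direction in all 182 settings run for them, and their call in all but 5, which were all under the replicate block described last. Counts of calls between LIP and CTL moved with the processing. On day 0, 60 genes and 0 members were called. With no filter 645 genes and 1 member were called, with all 12 libraries in 1 fit 12 genes, with DESeq2 206 genes, and without 1 library 13 to 658 genes and 0 to 2 members. On day 2, 0 genes and 0 members were called. With no filter 662 genes and 2 members were called, with a minimum of 10 counts 1 gene, with all 12 libraries in 1 fit 775 genes and 2 members, with DESeq2 489 genes and 2 members, and without 1 library 0 to 2014 genes and 0 to 2 members. For the interaction, 8 genes and 0 members were called. With no filter 815 genes and 1 member were called, with the likelihood ratio test 527 and 1, with DESeq2 531 and 1, and without 1 library 1 to 1596 and 0 to 2. The cause of these moves was not tested.

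Over all 50 member results 40 of 690 settings turned the sign of a result that had not passed the test and 22 added a call. Log2 fold changes turned for Malat1 (LIP against CTL, day 2) to −0.001 with a minimum of 10 counts and −0.015 with protein-coding totals, for Mir17hg on day 2 to 0.005 with no filter, and for Snhg8 (day 2 against day 0, CTL) to −0.043, −0.145 and, on the 6 CTL libraries alone, −0.001. Leaving out 1 library gave, for LIP against CTL on day 0, Malat1 −0.112 to 0.009, Snhg3 −0.256 to 0.162 and Mir155hg −0.172 to 0.46. On day 2 it gave Malat1 −0.12 to 0.125, Snhg3 −0.159 to 0.243, Snhg6 −0.159 to 0.331, Mir17hg −0.232 to 0.148 and Mir155hg −0.226 to 0.228. For the day change in CTL it gave Snhg1 −0.033 to 0.358 and Snhg8 −0.099 to 0.227. For the interaction it gave Malat1 −0.059 to 0.191, Snhg3 −0.138 to 0.316, Snhg6 −0.008 to 0.478 and Mir155hg −0.494 to 0.13. Protein-coding totals shifted the median of all genes by −0.164 in CTL and −0.191 in LIP between the days.

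LIP and CTL share the number 94 on day 0 and 97 on day 2, the numbers 92 and 93 recur in LIP of day 0 and CTL of day 2, and no number recurs within CTL or within LIP. Deviations of libraries with the same number correlated at −0.005, −0.055, 0.104 and −0.044, and 2 of 8 libraries were most like the one with their number. The labels do not say what the number means, and so few pairs cannot show whether these libraries share an animal or a batch. A replicate block on it over all 12 libraries, chosen after seeing the data, left 1 residual degree of freedom. It called 6847 genes between the days in CTL and 6884 in LIP, with 5 members in each, and 550 genes and 1 member, Snhg1 at 0.97, for the interaction. Signs turned under it for the day change in LIP of Snhg6 (−0.687) and Mir17hg (−0.373) and for the interaction of Snhg3 (−0.779), Snhg6 (−0.942) and Mir155hg (0.053).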
